A study of Homo sapiens with 74 samples.

Results

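Chromosome 17 was represented by 833 of the 28163 bins of 100 kb (2.958%) into which chromosomes 1 to 22 of the human genome build hg38 were divided, and every bin carrying that chromosome's name was taken. Of these bins 831 had enough counts to be tested. The question asked was where chromosome 17 touches the nuclear lamina in HEK293T, a line derived from human embryonic kidney that carries the SV40 large T antigen, in bulk libraries, with other Dam variants and in single cells.

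The nuclear lamina is a mesh of lamin proteins under the inner nuclear membrane, and chromatin that touches it, in lamina-associated domains (LADs), is usually gene-poor and silent. In DamID the bacterial adenine methyltransferase Dam is fused to a lamin, here lamin B1 (LMNB1), so that GATC sites near the lamina gain methyl groups, and the enzyme DpnI cuts only the methylated sites. Dam without the lamin partner records how easily each site can be reached, and it mostly marks open chromatin. V133A is a substitution in Dam that weakens its activity. Chromosome 17 is known as a gene-rich chromosome, with ERBB2, the HOXB cluster and the type I keratin cluster on its long arm.

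All samples were HEK293T cells, transiently transfected with the constructs except for untreated RNA controls, and the labels describe induction with 1 mM Shield-1, a ligand that stabilises destabilised proteins, for 20 h, without saying to which assay it applied. The deep bulk libraries were DamV133A-LMNB1 against DamV133A, 2 each. The variant libraries were DamV133A-LMNB1, DamV133A, DamWT-LMNB1 and DamWT (WT is the wild-type enzyme), 2 each. Single cells came from a microfluidic device in 2 batches: batch 1 held 15 cells with DamV133A-LMNB1 and m6A-Tracer, a fluorescent protein that binds methylated GATC, and 3 Dam-only cells with DamV133A and m6A-Tracer, and batch 2 held 36 cells with DamV133A-tdTomato-LMNB1 and m6A-Tracer-NES. RNA was sequenced from cells with DamV133A-LMNB1, DamV133A or m6A-Tracer and from untreated cells, 2 libraries each. The labels do not say that replicates were separate cultures, so the spread between them may be technical, and cells of 1 group are not independent samples. HEK293T cells carry several copies of a chromosome, which these counts do not separate.

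The bulk libraries held 402171358 to 524019579 coverage counts on the autosomes, the variant libraries 3162041 to 10666805 fragment counts, the single cells 9526 to 348793 unique fragments and the RNA libraries 39690886 to 51455298 estimated counts. On chromosome 17 each variant library had between 71658 and 190464 counts, and each cell between 205 and 12033 fragments. In RNA, the line's markers VIM, NEFL, NEFM, INA, KRT8 and KRT18 were present in all 8 libraries, whereas HBB, ALB, ACTA1, MYH2 and PTPRC stayed under 1 CPM, counts divided by the library total and scaled to 1e6 (for bins, by the TMM-scaled total). LMNB1 had 2528 and 1981 CPM in DamV133A-LMNB1 cells, against 258 and 262 CPM in DamV133A cells and 744 and 746 CPM in untreated cells.

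DamID reads chromosome 17 only at its GATC sites, and 3 promoters from RefSeq (build GRCh38.p14, 300 bases each, 250 before to 50 after the gene start) show what the assay can see at a lamina gene, at the edge of a lamina block and at an interior gene. KIF2B encodes a microtubule-depolymerising kinesin and is the one gene with its midpoint in the longer lamina-contact domain described below. ABCA10 encodes a lipid transporter of the ABC family at the second domain, and MYH4 a fast skeletal myosin heavy chain in the interior. In the sequences GATC is in capitals, the site whose adenine Dam methylates, on both strands since the site is its own reverse complement.
KIF2B promoter, chr17:53822677-53822976, plus strand: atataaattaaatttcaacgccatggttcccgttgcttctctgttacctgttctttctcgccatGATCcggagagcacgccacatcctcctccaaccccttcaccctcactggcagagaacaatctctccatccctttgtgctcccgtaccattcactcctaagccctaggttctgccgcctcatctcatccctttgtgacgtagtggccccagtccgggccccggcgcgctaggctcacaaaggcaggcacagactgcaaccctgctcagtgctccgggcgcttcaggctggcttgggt
ABCA10 promoter, chr17:69244799-69245098, minus strand: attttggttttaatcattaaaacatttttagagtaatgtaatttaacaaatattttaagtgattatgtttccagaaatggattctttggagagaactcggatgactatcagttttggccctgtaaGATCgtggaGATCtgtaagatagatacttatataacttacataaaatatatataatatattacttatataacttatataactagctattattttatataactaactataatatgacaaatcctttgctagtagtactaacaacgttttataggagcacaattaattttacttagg
MYH4 promoter, chr17:10469510-10469809, minus strand: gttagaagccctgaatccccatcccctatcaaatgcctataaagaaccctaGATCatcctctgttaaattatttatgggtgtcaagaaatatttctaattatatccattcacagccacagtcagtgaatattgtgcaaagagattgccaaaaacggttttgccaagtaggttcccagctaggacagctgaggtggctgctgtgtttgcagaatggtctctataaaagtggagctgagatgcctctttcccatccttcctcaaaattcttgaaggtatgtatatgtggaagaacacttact
The KIF2B promoter has 1 GATC, the ABCA10 promoter 2 and the MYH4 promoter 1. GATC was found in 42.5% of 1639 chromosome 17 promoters of this length, against 41.7% of all 35116 promoters. All 918 GATC sites of the chromosome 17 promoters lay at a border of the deposited DpnI fragments. The fragments over the KIF2B promoter had 0 counts in all 8 variant libraries. Those over the ABCA10 promoter had 11 counts in 1 DamV133A-LMNB1 library, 1 in a DamWT library and 0 in the other 6. Those over the MYH4 promoter had 24 and 0 counts in DamV133A-LMNB1 libraries, against 10 and 0 in DamV133A libraries, and 0 and 10 in DamWT-LMNB1 libraries, against 13 and 6 in DamWT libraries. No promoter was tested, and bins of 100 kb were used throughout.

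In the bulk libraries chromosome 17 lay mostly away from the lamina. A bin was called a LAD bin where DamV133A-LMNB1 counts were higher than DamV133A counts and an interior bin (iLAD) where they were lower, by edgeR's quasi-likelihood test with a Benjamini-Hochberg adjusted p under 0.05 over all bins. By this rule 39 bins (4.69%) were LAD bins, where 35.2% of all bins tested were called higher, and 625 bins (75.2%) were iLAD bins, where 36.2% of all bins were called lower. The remaining 167 bins (20.1%) were uncalled. Only chromosomes 19 (0.535%) and 22 (1.57%) had a smaller share of LAD bins, and chromosome 16, of about the same size, had 6.67%. Of the submitters' marked control iLAD bins, 108 of 108 on chromosome 17 were called iLAD. So were 1200 of 1200 over all autosomes, so this count does not set the chromosome apart. No tested bin of the chromosome is marked as a control LAD bin, where 1185 tested bins of all autosomes are.

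Chromosome 17 took 1.7048% and 1.7072% of autosomal counts in the bulk DamV133A-LMNB1 libraries, against 3.3142% and 3.4342% in the DamV133A libraries. With the lamin partner its share was thus 1.98-fold lower, and the groups did not overlap. The median log2 fold change of its bins was -0.87, against -0.017 over the bins of the other autosomes. LAD bins had a median of 0.82, below the 1.14 of all LAD bins of the genome. The iLAD bins had -0.97, near the -0.94 of all iLAD bins, and the uncalled bins had -0.29. The counts depended on scaling: with library totals, which moved the median of all bins to -0.32, 20 LAD bins and 695 iLAD bins were called, against 39 and 625 with TMM scaling, where that median was -0.064. They depended on the DamV133A libraries too: without library 1, 25 of the 39 LAD bins kept their call among 31 called, and without library 2, 23 among 30.

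**Figure D1:**
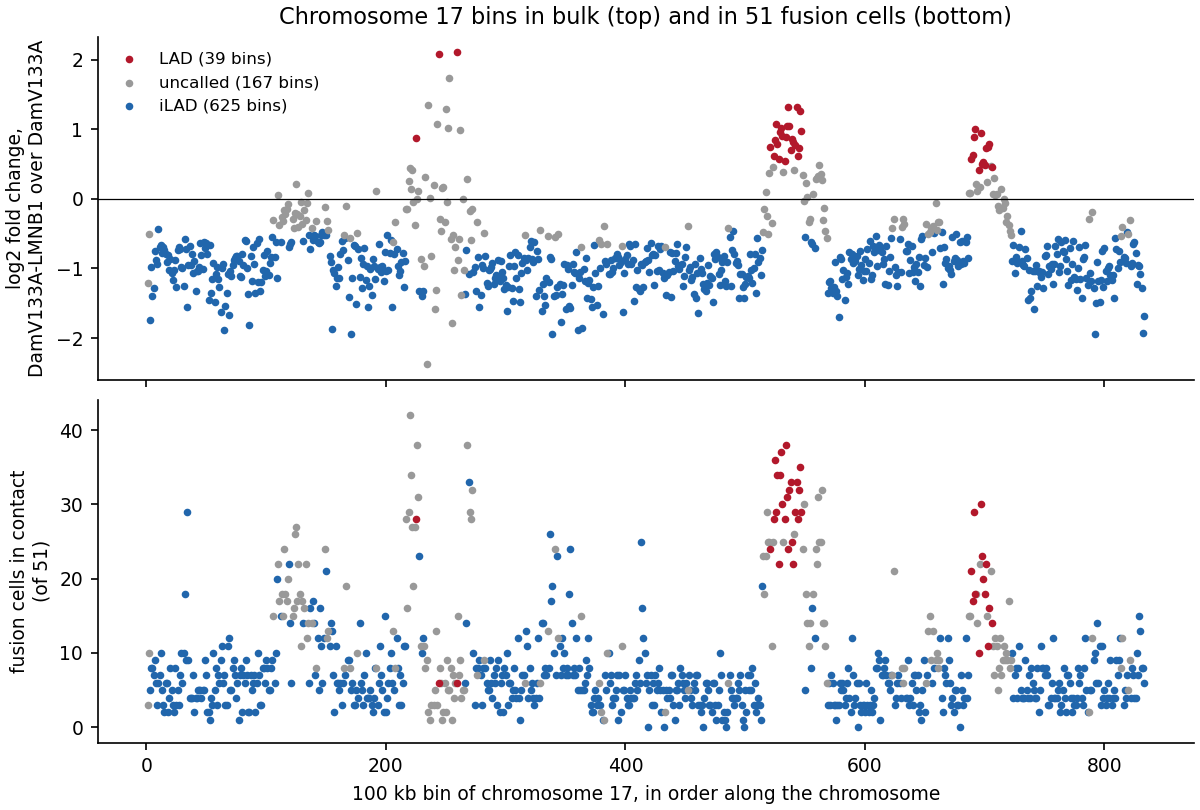
Bins of chromosome 17 in order along the chromosome. Top: bulk log2 fold change of DamV133A-LMNB1 over DamV133A, coloured by class (39 LAD, 167 uncalled and 625 iLAD bins); bottom: the number of the 51 fusion cells in which the bin was in contact. The LAD bins form a longer and a shorter block on the long arm, and 3 more lie near the centromere; the longer block also stands out in the cells.

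Nearly all LAD bins belonged to a pair of domains on the long arm, when runs of LAD bins up to 3 bins apart were joined. The longer, called here the 52 Mb domain, spanned chr17:52000001-54700000 (2.7 Mb, 23 LAD bins of 27) and held the midpoint of a single protein-coding gene, KIF2B. Its LAD bins averaged 32.3 and 33.7 CPM per bin in the DamV133A-LMNB1 libraries, against 18.7 and 17.1 CPM in the DamV133A libraries. The difference was 0.89 ± 0.10 on the log2 scale (SD of the difference, n = 2 each), 1.85-fold, which describes the bins and tests nothing, since the same libraries set the calls. The domain had 15 LAD bins without DamV133A library 1, 11 without DamV133A library 2 and 14 with library totals. Within the domain the fold change per bin ranged over 0.55 to 1.33, with a median of 0.87. The bin of KIF2B, chr17:53800001-53900000, had 37.1 and 38.5 CPM in DamV133A-LMNB1 libraries, against 18.2 and 23.2 CPM in DamV133A libraries. Its log2 fold change was 0.87 (SE 0.23, edgeR adjusted p = 0.00186), and without DamV133A library 1 it was 0.70 (adjusted p = 0.0502). The domain's highest log2 fold changes were at chr17:53500001-53600000 (1.33, adjusted p = 3.73e-05) and chr17:54200001-54300000 (1.33, adjusted p = 9.83e-05), which hold no gene midpoint. Most of the domain was made of 3 runs of 8, 8 and 6 LAD bins with medians of 0.87, 0.88 and 0.87, parted by single uncalled bins, and a single LAD bin at its near end (0.75) was not called without DamV133A library 1 or library 2.

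The shorter, called here the 69 Mb domain, spanned chr17:68800001-70600000 (1.8 Mb, 13 LAD bins of 18) and held the midpoints of 8 genes. Its LAD bins averaged 64.4 and 61.4 CPM per bin in the DamV133A-LMNB1 libraries, against 38.3 and 41.0 CPM in the DamV133A libraries. The difference was 0.67 ± 0.08 on the log2 scale (SD of the difference, n = 2 each), again a description of bins called in these libraries, and the median over its bins was 0.63, with a range of 0.41 to 1.00. The domain had 8 LAD bins without DamV133A library 1 and 6 with library totals. The block opened on the ABCA cluster of lipid transporters, in a run of 4 LAD bins, and went on as a run of 5, a run of 2 and 2 single bins. ABCA8, ABCA9, ABCA6 and ABCA10 lay in 3 LAD bins with log2 fold changes of 0.63, 0.88 and 1.00, and the next gene, ABCA5, lay in an uncalled bin at 0.22. The ABCA10 promoter printed above falls in that uncalled bin, although the gene's midpoint is in a LAD bin. MAP2K6, a kinase that activates p38, lay in the LAD bin of the domain nearest to the threshold (0.41, SE 0.18, adjusted p = 0.0441), and this call was lost without DamV133A-LMNB1 library 1 (0.18) or DamV133A library 2 (0.31). Library totals ended it as well (0.15), and that of the ABCA8 bin (0.37, adjusted p = 0.0530). The single bin at the far end (0.47) was not called without DamV133A-LMNB1 library 1 (0.32) or without DamV133A library 1 or library 2 (0.53 and 0.41). KCNJ16 and KCNJ2, inward-rectifier potassium channel genes, shared an uncalled bin at 0.24.

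The borders of the domains were unlike. Over the 10 bins before the 69 Mb domain the median log2 fold change was -0.62, and 8 of those bins were iLAD. Over the 10 bins after it the median was 0.023, and all 10 were uncalled. That side runs into the longest uncalled stretch of the chromosome, 16 bins at chr17:70600001-72200000 which hold 1 gene midpoint, that of SOX9, a transcription factor of cartilage and testis development. The 52 Mb domain had 4 iLAD bins of 10 before it (median -0.49) and 3 of 10 after it (median -0.16). CA10, a brain-expressed relative of the carbonic anhydrases, spans chr17:51630313-52160023 and so runs into the domain, while its midpoint lies in an uncalled bin ahead of it (-0.50 in bulk). That bin had 0.82 with V133A in the variant libraries described below (adjusted p = 0.144). The bins nearest to the threshold on the uncalled side, at chr17:70400001-70500000 (0.47, adjusted p = 0.0622) and chr17:52200001-52300000 (0.47, adjusted p = 0.0775), both lay inside the domains. Among iLAD bins, chr17:72900001-73000000 (-0.46, adjusted p = 0.0496) was just inside the threshold and chr17:38400001-38500000 (-0.65, adjusted p = 0.0501) just outside it.

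The last 3 LAD bins were single bins near the centromere, at chr17:22400001-22500000, chr17:24300001-24400000 and chr17:25800001-25900000, and they held no genes. The first had 14.6 and 16.6 CPM in DamV133A-LMNB1 libraries, against 4.49 and 12.6 CPM in DamV133A libraries, and was not called without DamV133A library 1 (log2 fold change 0.31). The second had 0.636 and 0.0819 CPM in DamV133A-LMNB1 libraries, against 0.113 and 0.0560 CPM in DamV133A libraries. The third had 0.522 and 0.0382 CPM in DamV133A-LMNB1 libraries, against 0.0667 and 0.0630 CPM in DamV133A libraries. In both the groups overlapped, and 1 fusion library carried the call: without DamV133A-LMNB1 library 1 the log2 fold changes of 2.09 and 2.11 became -0.052 and -0.76. Each of those 2 bins holds 82 DpnI fragments, against a median of 224 per LAD bin of chromosome 17.

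The interior of chromosome 17 was made of long gene-rich runs. The 5 longest iLAD runs, of which the last ties in length with a sixth, were chr17:200001-10500000 (103 bins, 233 genes, ending at MYH4), chr17:72200001-78600000 (64 bins, 110 genes), chr17:56800001-62200000 (54 bins, 55 genes), chr17:39700001-43200000 (35 bins, 148 genes, ERBB2 to NBR1) and chr17:28200001-31500000 (33 bins, 59 genes). Their median log2 fold changes lay between -1.10 and -0.93. Gene density was 1.54 protein-coding genes per Mb in LAD bins (6 genes), 17.1 per Mb in iLAD bins (1071 genes) and 4.79 per Mb in uncalled bins (80 genes). GATC density moved with the classes, with medians of 224 DpnI fragments per LAD bin, 288 per iLAD bin and 243 per uncalled bin, and its part in the calls was not tested.

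Of all 1157 placed protein-coding genes of the chromosome 1071 were in iLAD bins, and the counts of gene lists stand against that share. All 13 olfactory receptor genes of chromosome 17 lay in iLAD bins (6 bins, median log2 fold change -0.99), and so did all 34 keratin-associated protein genes (5 bins, -1.02), which build the hair shaft. None of the 12 olfactory receptor genes and 34 keratin-associated protein genes found in the RNA table reached 1 CPM in both untreated libraries. The type I keratins, filament proteins of epithelia, were in iLAD bins as well (28 of 28, 8 bins, -0.99), and 2 of them reached 1 CPM. The growth hormone locus (5 of 5 genes, 2 bins), the CD300 myeloid receptors (8 of 8, 5 bins), the interferon-induced Schlafen genes (6 of 6, 4 bins) and the calcium channel gamma subunits CACNG1, CACNG4 and CACNG5 (3 bins) also lay wholly in iLAD bins. Genes of a cluster share bins, so the bins are the units of these counts, and with most genes of the chromosome in iLAD bins they set no list apart. In single cells, where contact is defined below, bins of these clusters varied: the bin of OR3A2 and OR1E1 (-1.55 in bulk) was in contact in 20.0% of batch 1 and 72.2% of batch 2 fusion cells, against 66.7% of Dam-only cells. The bin of KRTAP9-2 (-0.94) was in contact in 33.3% of batch 1 and 55.6% of batch 2 fusion cells, against 33.3% of Dam-only cells, and that of SLFN11 (-1.57) in 40.0% and 50.0% of them, against 33.3% of Dam-only cells. These 3 bins were picked after their values were seen.

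Some clusters lay partly in uncalled bins. Of the sarcomeric myosin genes, 4 of 6 were iLAD and 2 uncalled, with bins between -0.84 and -0.30. The bin of MYH4 (-0.55, adjusted p = 0.0331) did not repeat its bulk call in the variant libraries described below. It had 0.41 with V133A (edgeR adjusted p = 0.364) and -0.35 with wild type (0.616). Of the HOXB genes, which pattern the body axis, 5 of 10 were iLAD and 5 uncalled, and 9 of 10 reached 1 CPM. Of the CC chemokines, which attract leukocytes, 12 of 16 were iLAD and 4 uncalled. The 17p12 list (MYOCD, HS3ST3A1, HS3ST3B1, COX10, PMP22, TEKT3 and TVP23C) had 5 iLAD and 2 uncalled genes, and MYOCD, a coactivator of muscle genes, lay in an uncalled run of 9 bins at chr17:12100001-13000000 with a median of -0.25. Of genes used by every cell, 6 of 6 ribosomal protein genes (-0.98) and 7 of 7 proteasome genes (-0.86) lay in iLAD bins, as most genes of the chromosome did, and all 13 reached 1 CPM. Of the ABCA genes 4 of 5 were in LAD bins and the fifth was uncalled. ASIC2, an acid-sensing ion channel gene, was in an iLAD bin (-1.20).

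The variant libraries, made separately from the bulk libraries that set the classes, read the same bins again. Those bulk libraries were made only with the V133A enzyme, so the classes are not a neutral choice between the enzymes. With V133A many LAD bins of chromosome 17 rose. Of the 37 tested, 17 were called higher in DamV133A-LMNB1 than in DamV133A, where 27% of all bins, of any class, were. Fold changes were positive in 36 of 37. Their median over the 37 bins was 1.04 on the log2 scale, below the 1.32 over all LAD bins of the genome. Of the 624 iLAD bins 405 were called lower, where 23.7% of all bins, of any class, were. Both classes were selected by their direction in bulk, so shares over bins of any class do not set chromosome 17 apart. The median over these iLAD bins was -1.89, against -1.64 over all iLAD bins of the genome. Over the whole chromosome 22 bins were called higher, the other 5 of them uncalled in bulk, and 423 were called lower. Library totals, which moved the median of all bins to -0.50 (-0.10 with TMM), gave 7 higher. The bin with the smallest p, chr17:51900001-52000000, lies directly ahead of the 52 Mb domain and was uncalled in bulk (0.37). It had 64.9 and 43.6 CPM in DamV133A-LMNB1 libraries, against 12.0 and 17.0 CPM in DamV133A libraries (log2 fold change 1.91, adjusted p = 0.00261). The next were chr17:22100001-22200000 near the centromere (2.14, adjusted p = 0.00308) and chr17:54100001-54200000 inside the domain (1.60, adjusted p = 0.00412). The 3 lower bins of smallest p began at 47400001 (-3.12), 46100001 (-2.85) and 57300001 (-4.53). With DamV133A library 1, DamV133A library 2, DamWT library 1 or DamWT library 2 left out, the higher calls numbered 5, 13, 14 and 14, and without a DamV133A library the lower calls numbered 209 and 214.

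With wild-type Dam no LAD bin was called higher in DamWT-LMNB1 than in DamWT by edgeR, where 2.42% of all bins were; 1 of 37 had an unadjusted p under 0.05 and DESeq2 called 0. The median over LAD bins was 0.15 on the log2 scale, against 0.63 over all LAD bins of the genome, and 21 of 37 were positive. One bin of the chromosome was called lower, where 0.212% of all bins were: chr17:26600001-26700000, an iLAD bin with 13.5 and 21.7 CPM in DamWT-LMNB1 libraries, against 63.6 and 73.5 CPM in DamWT libraries (log2 fold change -1.97, adjusted p = 0.0363). That call was lost without DamV133A library 1 or 2 (adjusted p 0.0573 and 0.0575), DamWT library 1 or 2 (0.331 and 0.338) or DamWT-LMNB1 library 1 (0.218), and with library totals (0.0608). Covered fragments turned its direction, to 0.22 (adjusted p = 0.771). DESeq2 called 50 bins lower, and 84 bins were lower with an unadjusted p under 0.05. The median over the iLAD bins was -0.65.

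In the 52 Mb domain the fusion stood above Dam alone with V133A and overlapped it with wild type. Its LAD bins averaged 39.2 and 40.5 CPM per bin in DamV133A-LMNB1 libraries, against 16.4 and 17.6 CPM in DamV133A libraries, a difference of 1.23 ± 0.08 on the log2 scale (SD, n = 2 each). They averaged 27.6 and 29.3 CPM in DamWT-LMNB1 libraries, against 27.8 and 29.5 CPM in DamWT libraries, a difference of -0.012 ± 0.084. With TMM scaling the wild-type groups overlapped and the V133A groups did not. The TMM factors were 0.965 and 1.01 for DamWT-LMNB1 libraries, against 1.10 and 1.10 for DamWT libraries. This scaling thus sets the wild-type fusion higher against Dam alone than library totals do. DamV133A alone minus DamWT alone was -0.75 ± 0.09 on the log2 scale in this domain, though edgeR called 0 of its bins between them (3 lower at an unadjusted p under 0.05, 1 by DESeq2). With V133A 12 of its 23 bins were called higher and all 23 were positive; with wild type none was called higher by edgeR, by DESeq2 or before adjustment, and 12 were positive. The test of the difference of the rises called 0 of the 23 bins by edgeR and 4 by DESeq2. Before adjustment 10 had p under 0.05, and all 23 differences were positive (median 1.18).

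In the 69 Mb domain both fusions stood above Dam alone. Its LAD bins averaged 58.7 and 64.9 CPM per bin in DamV133A-LMNB1 libraries, against 39.7 and 39.0 CPM in DamV133A libraries, a difference of 0.65 ± 0.11 on the log2 scale (SD, n = 2 each). They averaged 54.8 and 50.1 CPM in DamWT-LMNB1 libraries, against 45.5 and 41.8 CPM in DamWT libraries, a difference of 0.26 ± 0.13. The groups did not overlap for either enzyme. With V133A 5 of 13 bins were called higher, the bin of ABCA9 among them (0.93, adjusted p = 0.0121), and with wild type none was (1 before adjustment, 0 by DESeq2). The MAP2K6 bin had -0.0034 with V133A (adjusted p = 0.994), so its bulk call was not repeated here. The same held for chr17:69600001-69700000, at 0.95 in bulk and 0.035 with V133A in the variant libraries (adjusted p = 0.941). None of the 13 bins was called different between the rises by edgeR, none had an unadjusted p under 0.05, and DESeq2 called 0.

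**Figure D2:**
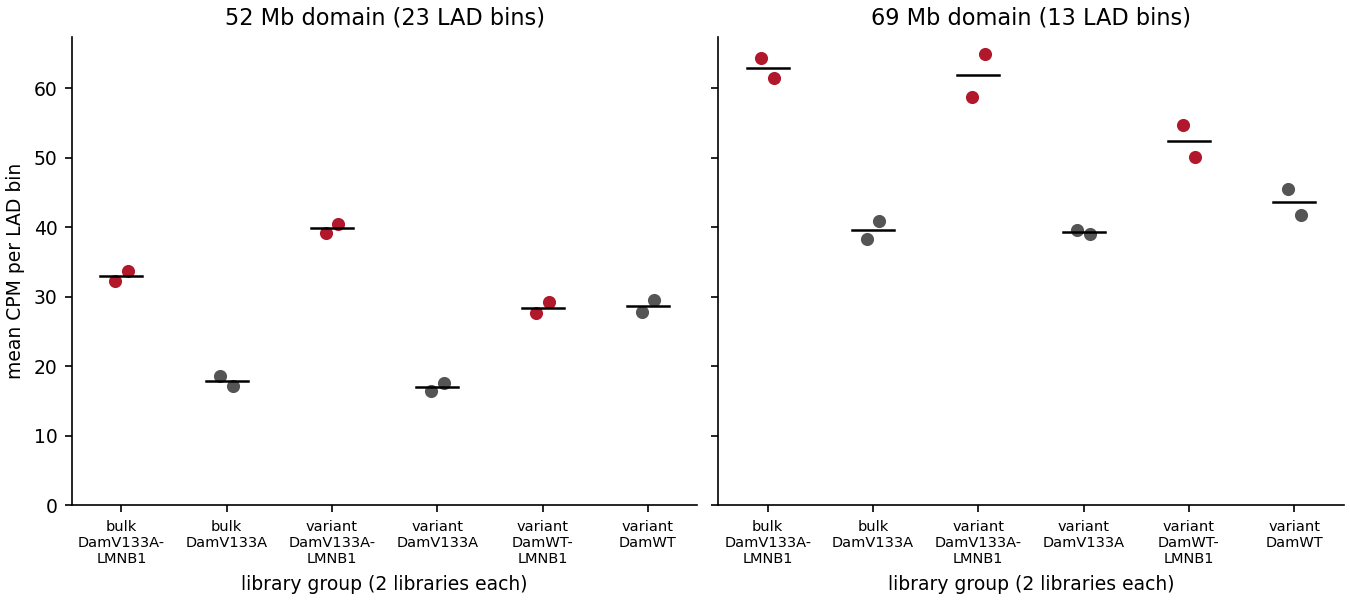
Mean CPM per LAD bin in the 52 Mb domain (left panel, 23 bins) and the 69 Mb domain (right panel, 13 bins) in each library, for the bulk and the variant libraries. Each point is a library and each bar the mean of 2; red marks fusions with LMNB1 and grey Dam alone. In the 52 Mb domain the DamV133A-LMNB1 libraries lie above DamV133A in both data sets, while DamWT-LMNB1 and DamWT overlap under this TMM scaling.

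Summed over the chromosome, counts per LAD bin over counts per iLAD bin gave log2 ratios of 2.24 and 2.46 in DamV133A-LMNB1 libraries, against -0.26 and -0.23 in DamV133A libraries. They were 1.05 and 1.11 in DamWT-LMNB1 libraries, against 0.38 and 0.34 in DamWT libraries. The rise was 2.60 ± 0.15 with V133A (6.04-fold) and 0.72 ± 0.05 with wild type (1.65-fold; SD of the difference, n = 2 each), so it was 1.87 ± 0.16 larger with V133A. The classes came from bulk libraries with the V133A enzyme, which may favour the V133A rise, and how far was not tested. With each covered fragment counted once, an alternative chosen after seeing the data, the rises were 1.60 with V133A and 0.35 with wild type. The exact two-sided permutation test over the 36 arrangements of the LMNB1 label within each enzyme gave p = 0.333. Exchanging the labels within 1 enzyme turns the sign of its rise and gives a larger difference, so with both rises positive this p could not reach the 0.0556 that 36 arrangements allow. Permuting the enzyme label within LMNB1 status, a test chosen after seeing the data, gave p = 0.0556, the smallest this exact test can give. On the other autosomes the rises were 2.74 ± 0.11 with V133A and 1.16 ± 0.03 with wild type. The chromosome's share of autosomal counts fell as well, to 0.909 ± 0.0472% in DamV133A-LMNB1 libraries, against 2.55 ± 0.0129% in DamV133A libraries, and to 1.55 ± 0.0129% in DamWT-LMNB1 libraries, against 2.42 ± 0.0291% in DamWT libraries (SD, n = 2 each).

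**Figure D3:**
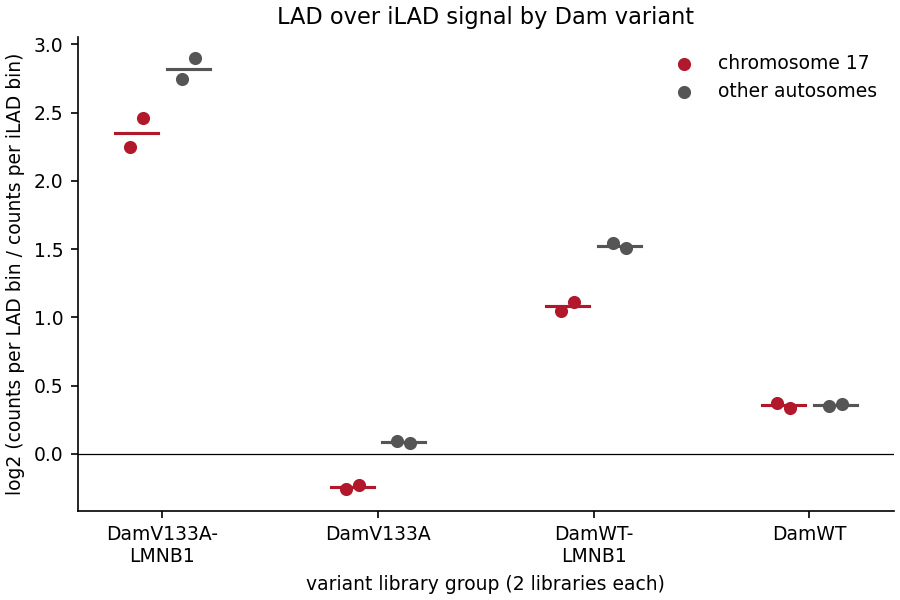
Log2 ratio of counts per LAD bin over counts per iLAD bin in the 8 variant libraries, for chromosome 17 (red) and the other autosomes (grey). Each point is a library and each bar the mean of 2. The ratio is highest with DamV133A-LMNB1, and below 0 on chromosome 17 with DamV133A alone.

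The difference between the enzymes was also tested bin by bin. By edgeR the log2 fold change with LMNB1 was lower with V133A than with wild type in 5 bins of chromosome 17, where it was in 0.358% of all bins, and higher in none, where it was in 0.136%. All 5 were iLAD bins. One holds the midpoint of KANSL1, a subunit of a histone acetyltransferase complex: chr17:46100001-46200000 had 16.5 and 8.73 CPM in DamV133A-LMNB1 libraries, against 93.9 and 88.6 CPM in DamV133A libraries, and 78.7 and 47.7 CPM in DamWT-LMNB1 libraries, against 43.1 and 53.0 CPM in DamWT libraries. The V133A groups did not overlap and the wild-type groups did. The log2 fold change was -2.85 with V133A and 0.40 with wild type (adjusted p = 0.525), and their difference was -3.25 (SE 0.50, adjusted p = 0.0449). Another, chr17:62000001-62100000, holds the midpoint of MED13, a subunit of the Mediator kinase module (-2.71, SE 0.54, adjusted p = 0.0449). The other 3 began at 6100001, 47400001 and 57300001, and no gene midpoint lies in them. With covered fragments the difference was -0.78 at the KANSL1 bin (adjusted p = 0.190), -0.94 at the MED13 bin (0.142) and -1.62 at 6100001 (0.135), while the bins at 57300001 (-2.04) and 47400001 (-1.85) were still called. These calls depended on single libraries: the number called lower was 0 without DamV133A library 1 or 2, DamWT library 1 or 2 or DamWT-LMNB1 library 1, it was 122 and 111 without DamV133A-LMNB1 library 1 and 2, and it was 26 without DamWT-LMNB1 library 2. At an unadjusted p under 0.05, 173 bins were lower and 16 higher, and DESeq2 called 123 and 9. Between DamV133A and DamWT without LMNB1, edgeR called 0 bins of the chromosome in either direction, as it did over all bins (0%), 4 were higher and 10 lower at an unadjusted p under 0.05, and DESeq2 called 0 higher and 2 lower.

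In 50 of 51 fusion cells the LAD bins of chromosome 17 exceeded its iLAD bins, by amounts that differed widely from cell to cell. For each cell, fragments observed in a class were divided by those expected from the bulk DamV133A profile, and the contrast is the log2 ratio of the LAD value to the iLAD value. Its median was 2.39 in batch 1 fusion cells (lowest -0.023, highest 4.14, n = 15) and 1.91 in batch 2 fusion cells (0.26 to 3.44, n = 36), against -0.75 in Dam-only cells (-1.75 to -0.18, n = 3). The 51 fusion cells were all higher than every Dam-only cell, and the summed bulk DamV133A-LMNB1 libraries had 1.72 on the same scale. That bulk value had to be positive, since the same bulk libraries set the classes and bulk DamV133A gave the expected counts. The cells share these classes and expected counts. Each group is 1 sample, so there is no test. Of a cell's LAD and iLAD fragments on the chromosome, the median share in LAD bins was 16.0% in batch 1 fusion cells and 12.0% in batch 2 fusion cells, against 2.11% in Dam-only cells.

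**Figure D4:**
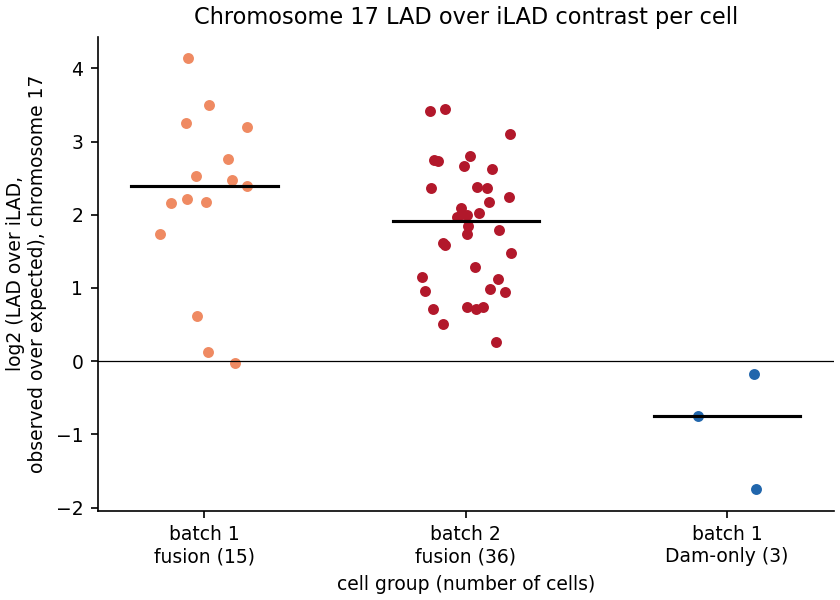
LAD over iLAD contrast of chromosome 17 in each cell, on the log2 scale described above, in batch 1 fusion cells, batch 2 fusion cells and batch 1 Dam-only cells. Each point is a cell and each bar the median of its group (2.39, 1.91 and -0.75). The fusion cells all lie above the 3 Dam-only cells.

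A few cells stood apart. Cell 12 of batch 1 gave 8.04% of its fragments to chromosome 17, where the batch 1 fusion median was 1.36% and the Dam-only median 4.57%, and cell 7 of batch 1 had the lowest contrast (-0.023; 0.45 on the other autosomes). Cell 35 of batch 2 had the highest share of its batch (4.18%, median 1.49%) and the lowest contrast (0.26; 0.010 on the other autosomes). Cells are numbered in the order of the samples within a batch. Without cells 7 and 12 the batch 1 median contrast was 2.47, and the mean contact of iLAD bins, defined next, was 8.62% in place of 14.8%. In cell 17 of batch 2 the share was lowest, at 0.407%, and its iLAD value was 0.0801 of that expected.

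A bin was counted as in contact in a cell where it had at least 1 fragment and its observed over expected value was 1 or more. The LAD bins were in contact in a mean of 52.5% of batch 1 fusion cells and 48.1% of batch 2 fusion cells, against 32.5% of Dam-only cells. The iLAD bins were in contact in 14.8% of batch 1 and 11.4% of batch 2 fusion cells, against 61.1% of Dam-only cells. LAD bins of the other autosomes were in contact in 59.8% of batch 1 and 62.3% of batch 2 fusion cells, against 28.1% of Dam-only cells. LAD contact was lower at a fixed depth: with each cell thinned to 10000 fragments and 1 shallower cell left out, the LAD values were 31.3% and 25.9% in batch 1 and batch 2 fusion cells, against 12.0% in Dam-only cells, and the iLAD values 14.3% and 14.2%, against 41.5%. Across the 831 tested bins, contact in fusion cells and the bulk log2 fold change had a Pearson r of 0.54 in each batch, and contact in the batches had 0.66, as a description of bins that share cells and libraries. Within the 39 LAD bins r was -0.35 in batch 1 and -0.05 in batch 2.

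The LAD bins of the longer domain were in contact in a mean of 55.9% of batch 1 and 60.4% of batch 2 fusion cells, against 26.1% of Dam-only cells. The bin with the most contacts in the domain, chr17:53300001-53400000, was in contact in 38 of 51 fusion cells, and the KIF2B bin in 25. The LAD bins of the 69 Mb domain were in contact in 53.3% of batch 1 fusion cells but 31.0% of batch 2 fusion cells, against 48.7% of Dam-only cells. Its most contacted bin, chr17:69600001-69700000, was in contact in 30 fusion cells and the MAP2K6 bin in 10. Both were also in contact in all 3 Dam-only cells. Batch 1 and batch 2 differ in Dam construct, tracer and library kit, which cannot be told apart.

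In single cells the domains were often unlike. Summed over its bins, the 52 Mb domain had an observed over expected value of 1 or more in 41 of 51 fusion cells and the 69 Mb domain in 19. Both were at 1 or more in 15 cells, the 52 Mb domain alone in 26, the 69 Mb domain alone in 4 and neither in 6. These pooled counts join unlike batches. In batch 1 the 52 Mb and 69 Mb domains reached 1 in 10 and 10 of 15 cells, each alone in 4. In batch 2 they reached it in 31 and 9 of 36 cells, alone in 22 and 0. The 52 Mb value was the higher in 33 of 36 batch 2 and 10 of 15 batch 1 fusion cells, and in 0 of 3 Dam-only cells. The Pearson r of the log2 values was -0.25 in batch 1 and 0.33 in batch 2, as a description. The cells named next were picked after their values were seen. Cell 12 of batch 1 had 5.21 in the 52 Mb domain (165 fragments, exact 95% Poisson interval 4.44 to 6.07). It had 0.226 in the 69 Mb domain (9 fragments, 0.103 to 0.428). Over the chromosome this cell had 2.31 in iLAD bins and 2.76 in uncalled bins, so it was not high in the 52 Mb domain alone. Cell 2 of batch 1, the shallowest cell with 205 fragments on the chromosome, was high in the 69 Mb domain, at 4.28 (23 fragments, 2.71 to 6.41). In the 52 Mb domain it had 0.936 (4 fragments, 0.255 to 2.40), an interval that includes 1. Cell 7 of batch 2 was high in both, at 5.99 (5.33 to 6.72) and 2.03 (1.69 to 2.41). Intervals cover counting error only and make no allowance for the picking.

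**Figure D5:**
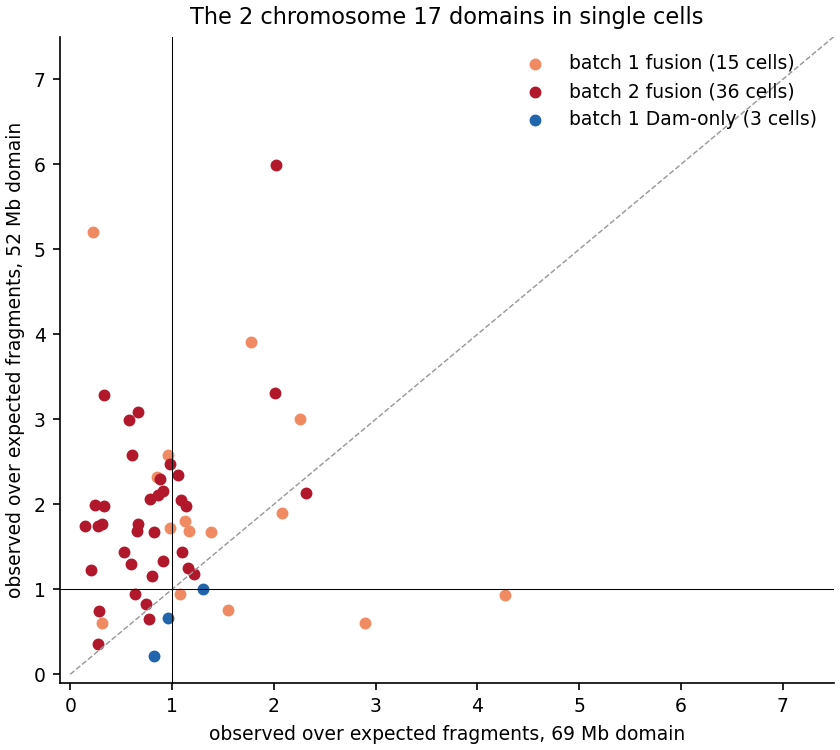
Observed over expected fragments of the 52 Mb domain (vertical axis) and the 69 Mb domain (horizontal axis) in each of the 54 cells, coloured by group. The solid lines mark 1 and the dashed line equal values. Most batch 2 fusion cells lie above the dashed line and left of 1, and the 3 Dam-only cells lie below the dashed line.

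Some bins outside the LAD class were often in contact too. The highest count of the chromosome, 42 of 51 fusion cells, was at chr17:21900001-22000000, which was uncalled in bulk (0.45, adjusted p = 0.299) and holds 31 DpnI fragments; 1 of 3 Dam-only cells had it in contact. Next were chr17:22500001-22600000 and chr17:26700001-26800000, with 38 each, uncalled at -0.0019 and 0.29, and in contact in 0 of 3 Dam-only cells. All 3 lie near the centromere and were picked after their values were seen. Over all uncalled bins the mean contact was 27.2% of batch 1 and 27.3% of batch 2 fusion cells, between the LAD and iLAD values.

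Few LAD genes could be followed in RNA. Genes were placed by their midpoint; 1157 protein-coding genes were placed and 1125 (97.23%) had RNA values. In untreated cells 2 of 6 LAD genes reached 1 CPM, against 70.0 ± 0.48% of 1040 iLAD genes (SD, n = 2 libraries) and 58.2% of 79 uncalled genes. In each DamV133A and m6A-Tracer library 3 of 6 LAD genes reached it. The gap hung on the threshold: at 0.1 CPM in untreated cells the LAD share was no lower than the iLAD share. CPM is not corrected for gene length, so a short gene needs more transcripts to pass. KIF2B had 0 counts in all 8 libraries. MAP2K6 had 11.5 and 10.3 CPM in DamV133A-LMNB1 cells, against 11.6 and 11.1 CPM in DamV133A cells and 12.6 and 13.7 CPM in untreated cells. ABCA9 had 1.55 and 1.09 CPM in DamV133A-LMNB1 cells, against 2.08 and 1.68 CPM in DamV133A cells and 1.46 and 1.42 CPM in untreated cells.

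Of the 5 LAD genes tested, none was called by edgeR between DamV133A-LMNB1 and DamV133A cells, and DESeq2 called 0; 1, ABCA10, had an unadjusted p under 0.05 (log2 fold change -0.70, SE 0.30). Of 897 genes tested on the chromosome, 159 were called higher, where 12.7% of all genes were, and 78 lower, where 7.55% were. Of the 4 genes with the smallest p in each direction, DPH1, an enzyme of diphthamide synthesis, had 81.8 and 85.7 CPM in DamV133A-LMNB1 cells, against 58.3 and 59.9 CPM in DamV133A cells (0.58, SE 0.06, adjusted p = 0.0180). RPL26, a ribosomal protein gene, had 689 and 797 CPM in DamV133A-LMNB1 cells, against 538 and 523 CPM in DamV133A cells (0.57, adjusted p = 0.0180). TMEM256 and PYCR1, an enzyme of proline synthesis, were higher as well (0.82 and 0.39). Untreated cells had 85.0 and 87.3 CPM of DPH1, 761 and 752 CPM of RPL26, 41.5 and 37.9 CPM of TMEM256 and 252 and 253 CPM of PYCR1. All 4 genes were thus lower in DamV133A than in untreated libraries, so these calls do not show a rise over untreated cells. B4GALNT2, a glycosyltransferase gene (-0.78), KCNAB3, a potassium channel subunit gene (-0.86), LRRC37A2 (-0.41) and ATAD5, which helps unload PCNA (-0.63), were lower. These 4 were higher in DamV133A than in untreated libraries. LRRC37A2 has near-identical copies nearby, so its count is uncertain. PYCR1 lay in an uncalled bin and the other 7 in iLAD bins. With library totals in place of TMM the chromosome had 104 genes higher and 127 lower, against 159 and 78. These RNA calls hung on the number of libraries: 0 genes of the chromosome were called in either direction when any 1 of the DamV133A, m6A-Tracer or untreated libraries was left out, and 325 were called higher and 201 lower without DamV133A-LMNB1 library 1.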

How the data were processed

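DamID and RNA libraries of HEK293T cells were analysed as deposited. Per the file headers, the authors deposited raw counts: coverage counts (bulk; whether 1 is a read or a fragment could not be told) and unique fragment counts (cells) per 100 kb bin of hg38, and counts per DpnI fragment (variants). RNA came as estimated counts per gene, per the file headers. The authors' deposited log2 fold changes of the bulk libraries correlated at 0.99999 with those computed here on chromosome 17, and the 0 or 1 marks of control bins are the authors' own. Tools listed in the submitters' processing notes, with no step assigned, are Salmon, limma, DESeq2, bedtools 2.28, SAMtools 1.9, Trimmomatic 0.39 and BWA 0.7.15-r1140.

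Variant fragments were summed to 100 kb bins by midpoint, and estimated counts were rounded to whole numbers. Each table was fitted whole, over all chromosomes (the variant table with X) or genes, with edgeR 4.0.16 in R 4.3.3 (filterByExpr, TMM, glmQLFit, glmQLFTest), SE being the absolute log2 fold change over the square root of F; DESeq2 1.42.0 was an alternative. The 8 variant libraries, and the 8 RNA libraries, entered 1 fit each. CPM of bins use TMM-scaled library sizes and CPM of genes library totals. The fits were tested on simulated data with 200 changed features, as many up as down, and a fixed spread between libraries. Far more bins changed in the bulk libraries, so the simulation could not test the scaling. Read depth without molecular identifiers does not count independent molecules. Protein-coding genes (RefSeq, GRCh38.p14) were placed by midpoint and matched by symbol; 12 whose coordinates broke the table's order were left out. The exact intervals cover counting error only. Alternatives were other scalings, no filter, DESeq2, a replicate block, covered fragments, stricter classes, thinned cells, other thresholds and each library left out.

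The bins, gene lists and tests were chosen with earlier results of these data known. Named bins are all LAD runs, the 5 longest iLAD runs and the 3 bins of smallest adjusted p per variant contrast and direction, all 5 where 5 were called, of which only called ones are described; named genes are those in LAD runs, the list members and the 4 of smallest RNA p per direction. Promoters came from those lists, since no genome was used here; of the 5 taken, 3 are printed.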

Additional observations from a re-analysis of the deposited data

Results flagged for a closer look

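In 5 interior bins of chromosome 17 the change with LMNB1 differed between the Dam variants, by the test of the difference itself in edgeR's fit over all 8 variant libraries (adjusted p = 0.0449 each). The difference of the log2 fold changes, V133A minus wild type, was -4.99 at chr17:6100001-6200000, -4.33 at chr17:57300001-57400000, -3.25 at chr17:46100001-46200000 (KANSL1), -2.86 at chr17:47400001-47500000 and -2.71 at chr17:62000001-62100000 (MED13). At the first of these the DamV133A-LMNB1 libraries had 7 and 6 counts, against 201 and 126 in the DamV133A libraries, while the DamWT-LMNB1 libraries had 330 and 89, against 105 and 68 in the DamWT libraries. DamWT-LMNB1 library 1 had the highest count of the wild-type libraries in all 5 bins and was also the deepest variant library. None of the 5 was called without that library, without DamV133A library 1 or 2, or without DamWT library 1 or 2. With replicate number as a block in the fit, 0 bins of the chromosome were called lower. With each covered fragment counted once, only the bins at 57300001 (-2.04) and 47400001 (-1.85) of these 5 were called.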

How the results depend on the processing

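Bulk calls on chromosome 17 numbered 20 LAD bins with library totals, and 9 LAD and 287 iLAD bins at an absolute log2 fold change of 1 or more. Leaving out 1 library gave 30 to 37 LAD bins, 23 to 33 of them among the 39, and 450 to 627 iLAD bins. Without DamV133A-LMNB1 library 1 the bins at 24300001 and 25800001 turned to -0.0517 and -0.764, and with 1 library left out they reached up to 2.89 and 2.98. With V133A, 37 bins were higher by DESeq2 and 7 with library totals, and leaving out 1 library gave 5 to 25 higher and 209 to 465 lower. With wild type, DESeq2, covered fragments (each fragment counted once) and library totals gave 50, 19 and 0 lower bins, leaving out 1 library gave 0 to 36, and covered fragments turned the bin at 26600001 to 0.22. The difference between enzymes had 8 lower bins with DESeq2 size factors, 12 with library totals, 27 lower and 1 higher with covered fragments, 123 lower and 9 higher by DESeq2, and 0 to 122 lower and 0 to 4 higher with 1 library left out. DESeq2 called 2 bins lower in DamV133A than in DamWT. The LAD over iLAD rises were 3.13 with V133A and 2.43 for the difference with the stricter classes, and 1.60, 0.35 and 1.25 (V133A, wild type, difference) with covered fragments; leaving out 1 library gave 2.49 to 2.70, 0.69 to 0.76 and 1.77 to 1.98. The cause of these shifts was not tested.

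Replicate numbers did not pair the libraries (correlations of same-numbered deviations from -0.0639 to 0.0318). With the replicate block, 0 bins were lower for the difference between enzymes, 41 genes were lower in RNA, and the LAD over iLAD rise with V133A was 2.60. With library totals RNA had 104 genes higher and 127 lower, and with 1 library left out 0 to 325 and 0 to 201. RNA of MAP2K6 turned to -0.0547 with library totals and ranged over -0.0170 to 0.0842 with 1 library left out, where ABCA8 ranged over -0.0783 to 0.90. Thinning gave LAD contact of 31.3% (batch 1), 25.9% (batch 2) and 12.0% (Dam-only) and iLAD contact of 41.5% (Dam-only), and a threshold of 2 times expected gave 27.1% (batch 2) and 8.55% (Dam-only) for LAD and 25.8% (Dam-only) for iLAD. With 1 Dam-only cell left out its LAD contact was 21.8% to 41.0%, its iLAD contact 57.8% to 66.2% and its contrast -1.25 to -0.46. At 0.1 CPM 83.3% of LAD and 80.4% of iLAD genes passed, and 25.0% and 69.2% with classes by library totals; leaving out 1 untreated library gave 33.3% and 69.6% to 70.3%. Results not given here kept their side of the threshold or moved by less than their spread, except for single bins and genes whose call alone was lost. Depth limits single cells: the shallowest had 205 fragments on the chromosome.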
